A study of Mus musculus with 12 samples.

Results

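Translation initiation and elongation factors were taken as the rows whose Ensembl identifier maps, in the GENCODE annotation of GRCm38, to a protein-coding symbol that starts with Eif or Eef followed by a digit. Of the 55573 identifiers counted, 68 met that rule, 55 of them named for initiation and 13 for elongation. A further 11 rows with a matching symbol are not protein-coding and were left out. RNA was sequenced from the extensor digitorum longus (EDL), a fast hindlimb muscle, of C57BL/6 mice, in 12 libraries. Each of 4 groups had 3: fibers taken singly, fibers pooled by 5, fibers pooled by 20, and the whole muscle. The labels give no treatment, age, sex or animal for any group, so p-values measure only the spread between these libraries, which may be partly technical. The SMART-Seq HT kit, which copies very small amounts of RNA into full-length cDNA, was used for all. Single fibers were lysed directly in the kit buffer, whole muscle RNA came from Trizol extraction, and the labels do not say how the pools were extracted. Isolation and extraction therefore changed together between single fibers and whole muscle and cannot be told apart.

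Initiation factors load the initiator tRNA on the small ribosomal subunit, bind the capped mRNA, scan for the start codon and let the large subunit join. Elongation factors then bring aminoacyl-tRNA to the ribosome (eEF1A, recharged with GTP by the eEF1B complex) and move the ribosome along the mRNA (eEF2). Adult skeletal muscle is known for using Eef1a2, the muscle, heart and neuron form of eEF1A, where most other cells use Eef1a1. Contraction, feeding and stress are known to act on eIF2, on eIF4E through its binding proteins and on eEF2 through its kinase, mostly at the protein level, which RNA counts do not measure.

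The libraries held 4702823 to 27787120 counted reads, and 65 to 68 of the 68 genes had a read in each. The genes' summed share of all reads was 0.569% to 0.627% in single fibers, 0.250% to 0.588% in pools of 5, 0.231% to 0.458% in pools of 20 and 0.636% to 0.657% in whole muscle. Reads on 1506 olfactory, vomeronasal and taste receptor genes, which muscle has no known use for, served as a measure of background. A read was found on 4.85% to 26.7% of these in single fibers and 2.32% to 4.85% in whole muscle, but on 78.7% to 97.3% in the pools of 20. The pools of 5 differed among themselves: 58% and 68.9% of receptor genes had a read in pools 1 and 2, and 4.58% in pool 3. Pool 3 also correlated better with single fiber 2 (0.944 over log2 CPM of all genes) than with pools 1 and 2 (0.739 and 0.673). Markers of the labelled tissue were present throughout, at 19418 to 351032 summed CPM for 10 myofiber genes. Fibroblast and endothelial markers were much lower in single fibers than in whole muscle, with 13 to 290 against 4287 to 4810 summed CPM for 10 fibroblast genes and 4.8 to 11 against 1128 to 1315 for 12 endothelial genes, of which Esam had no read in single fibers. For 10 macrophage genes the gap was smaller in the sum, with 281, 20.2 and 285 against 462 to 533 CPM, but not gene by gene. Of these, 7 were lower and Cd68 higher, and C1qa had no read in single fibers. Their median log2 fold change was -7.82, against -5.28 for the fibroblast and -6.65 for the endothelial genes. For 5 satellite cell genes the sum was 10.3 to 20.4 against 23.9 to 28.1 CPM (2 lower), with a median of -2.12. In pools of 5 and of 20 the endothelial sums were 92.6 to 729 and 75.8 to 611. What these cells contribute to the values below was not tested, and less RNA per cell cannot be told apart from fewer cells of a type.

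Levels are given as CPM, counts per 1000000 reads of the library total scaled by TMM, a factor that aligns the bulk of genes between libraries. These factors ran from 0.522 to 2.95, so every direction below was also computed on plain library totals. Counts on library totals, or with libraries left out, come without the share of all genes called. They therefore do not set the translation factors apart from other genes. A gene is called at a Benjamini-Hochberg adjusted p under 0.05 in edgeR's quasi-likelihood test over all genes, and differences are log2 fold changes ± SE.

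On the TMM scale, single fibers held more mRNA of many factors than whole muscle. The factors' summed share of all reads was lower, at 0.569% to 0.627% against 0.636% to 0.657%. Of the 65 genes tested, 28 rose and 3 fell, that is 43.1% and 4.62%, where 33.6% of all 14028 genes tested were called, 13.9% higher and 19.8% lower. The median log2 fold change was 0.81 for the factors and -0.12 for all genes. On library totals the count turned over, to 3 higher and 13 lower, with medians of -0.29 for the factors and -1.20 for all genes. The distance between the factors and all genes was almost the same on both scales, 0.93 and 0.91 on the log2 scale. Calls that held in the same direction under all 4 scalings tried (TMM, RLE, upper-quartile and library totals) were Eif1, Eif1a and Eef1akmt4, which rose, and Eef1a1, Eef1a2 and Eif5a2, which fell. With whole muscle 1, 2 or 3 left out, 13, 8 and 15 factors were called, and with 1 fit over all 12 libraries 3 were called.

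**Figure D1:**
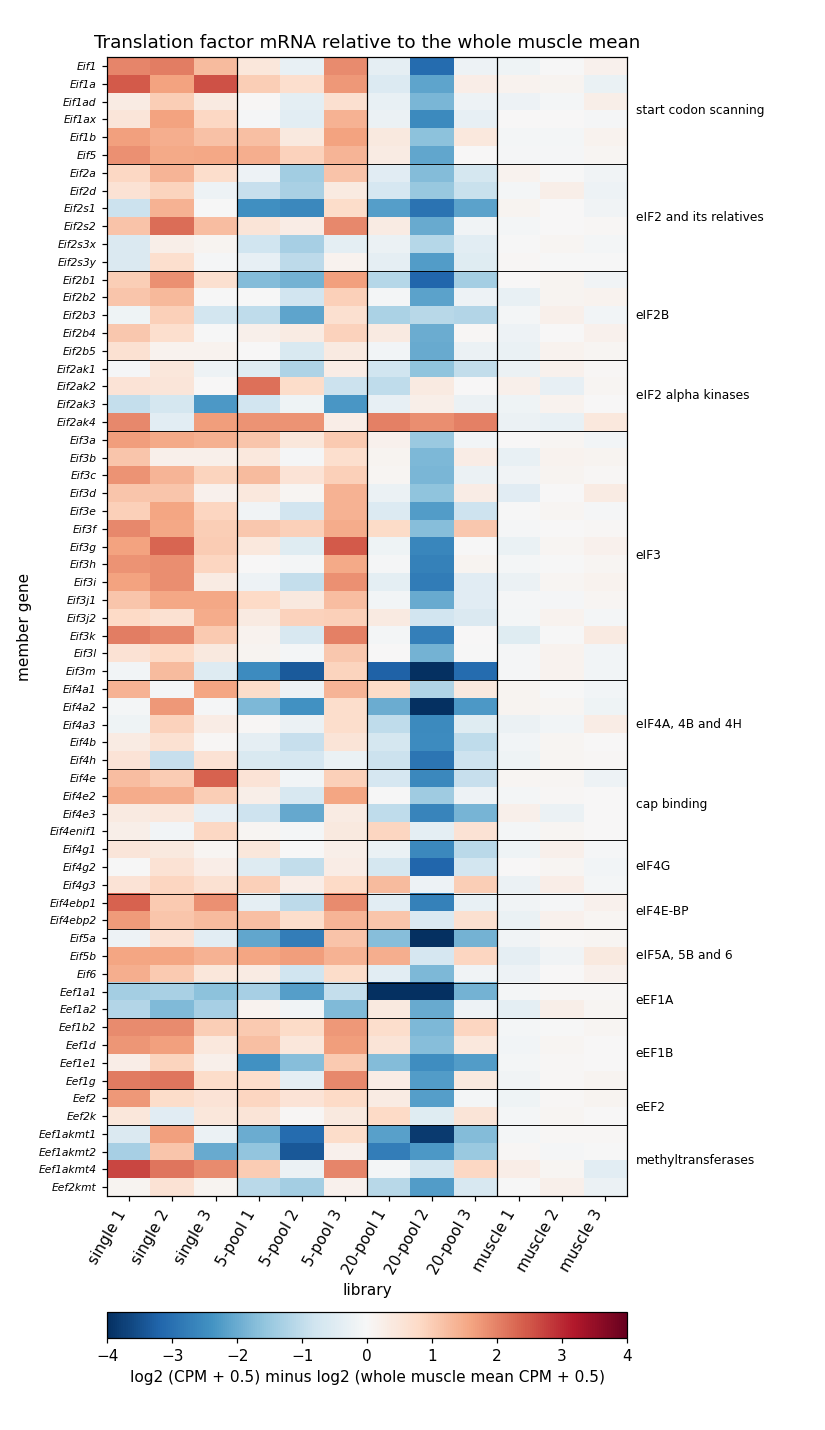
Level of 64 factor genes in the 12 libraries (columns), as log2 (CPM + 0.5) minus the log2 of the whole muscle mean, on TMM-scaled CPM, with red higher, blue lower and values beyond 4 drawn in the end color. Eif4e1b, Eif4ebp3, Eif5a2 and Eef1akmt3, which are close to background, are left out. Single fibers and 5-fiber pool 3 are mostly red, 20-fiber pool 2 is almost all blue and Eef1a1 is blue in all 9 fiber libraries. On library totals the red of single fibers turns into a median log2 fold change of -0.29.

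In pools of 5, only Eif5b rose and only Eef1a1 fell among 65 factors tested against whole muscle, where 8.85% of 14764 genes were called, 4.63% higher and 4.22% lower. A further 12 factors had an unadjusted p under 0.05 without passing the adjustment. The 3 pools differed among themselves: without 5-fiber pool 3, 15 factors were higher and 17 lower. Leaving out pools 1 and 2 keeps 1 library. The count from that fit is listed only among the processing alternatives and is not read as a result. On library totals 0 were higher and 17 lower, with medians of -0.80 for the factors and -1.20 for all genes. On the TMM scale the median of the factors was 0.37, against -0.03 for all genes.

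Of 66 factors tested in pools of 20 against whole muscle, 2 rose (Eif2ak4 and Eef1akmt3) and 11 fell. That is 3.03% higher and 16.7% lower, where 43.9% of 16969 genes were called, 30.3% higher and 13.5% lower, so the share of factors that fell was near that of all genes. The factors' median was -0.28 and that of all genes 0.38. On library totals 3 were higher and 24 lower, with medians of -0.61 for the factors and 0.25 for all genes. Of the 11 that fell, 10 (all but Eif2b3) did so under all 4 scalings. Without 20-fiber pool 2, the library with the most background, 12 were higher and 22 lower, and without 20-fiber pool 1, 2 were higher and 22 lower.

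Taken as 1 contrast, the mean of the 3 fiber groups differed from whole muscle in 2 of 66 factors, Eef1a1 lower and Eif2ak4 higher, where 15.2% of 22110 genes were called, 7.46% higher and 7.78% lower. Only the fall of Eef1a1 held under all 4 scalings. Library totals gave 0 higher and 21 lower, with medians of -0.54 for the factors and -0.30 for all genes. Without the 5 fiber libraries of high background (5-fiber pools 1 and 2 and the pools of 20) 25 were higher and 4 lower, and without single fiber 2 and 5-fiber pool 3, those of lowest background, 1 was higher and 11 lower. All comparisons with whole muscle share its 3 libraries.

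Among the fiber groups, single fibers stood above pools of 20 in 25 of 65 factors and below in 1 (Eef1akmt3), 38.5% and 1.54%, where 36.1% of 16978 genes were called, 8.52% higher and 27.5% lower. The median difference was 1.24, against -0.74 for all genes, and on library totals 0.49 against -1.62, with 13 higher and 4 lower. Without single fiber 2, 12 were higher and 1 lower. No factor was called between single fibers and pools of 5 (64 tested, 1 with unadjusted p under 0.05; 0.0157% of 12700 genes called, 0 factors by DESeq2) or between pools of 5 and pools of 20 (65 tested, 7 with unadjusted p under 0.05; 0.00% of 17113 genes called, 0 factors by DESeq2). Without the 2 fiber libraries of lowest background, 21 factors were higher and 1 lower in single fibers than in pools of 5.

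**Figure D2:**
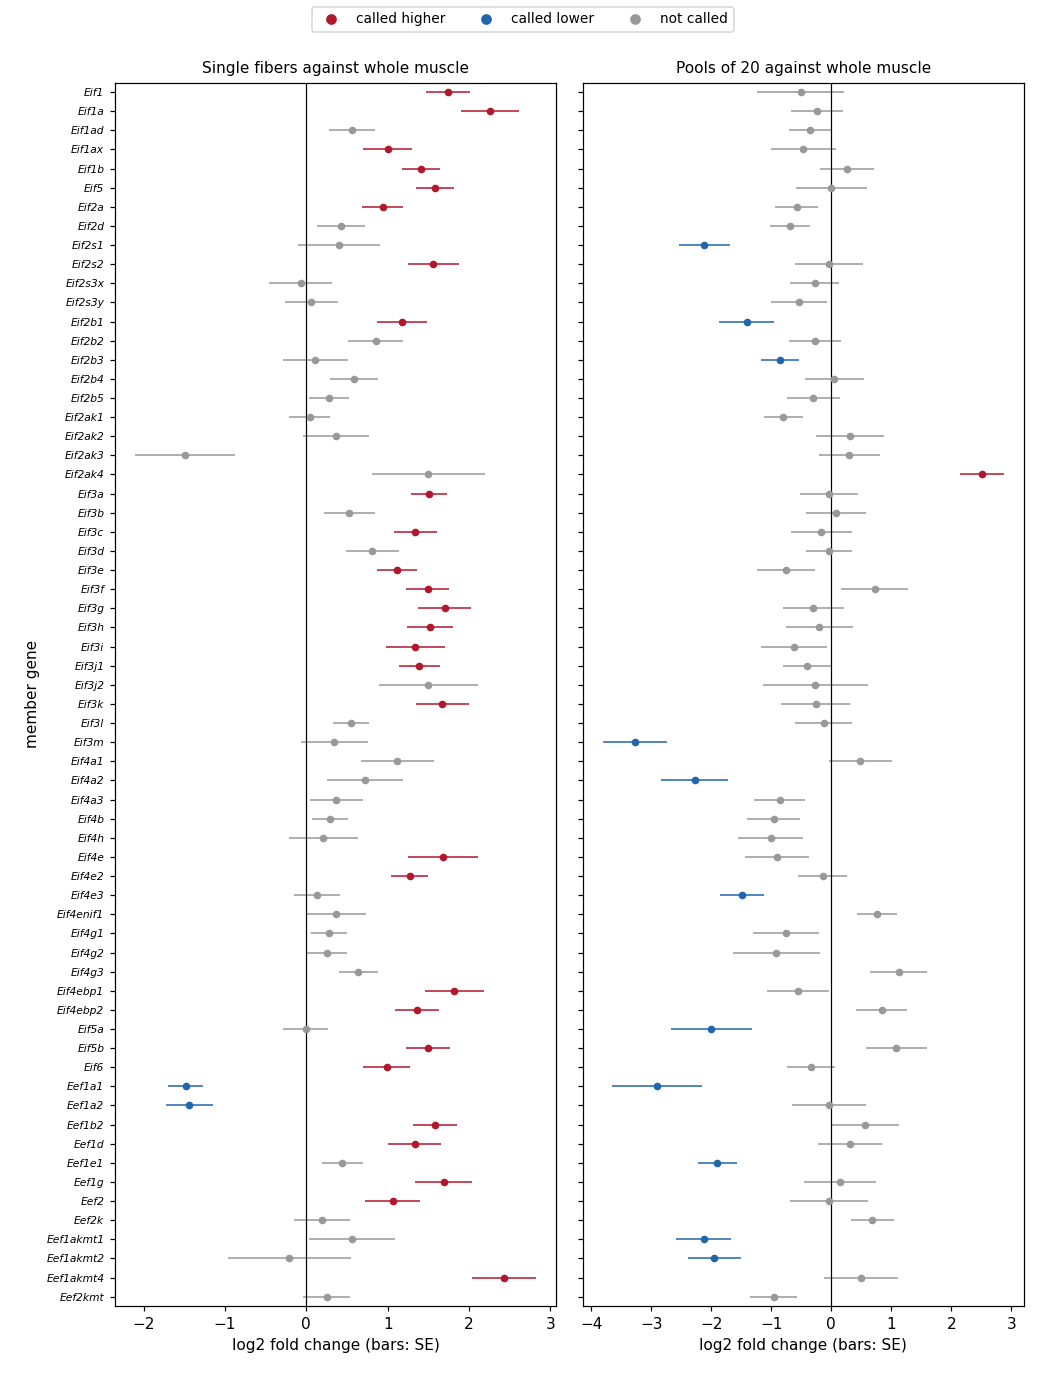
Log2 fold change of 64 factor genes (rows) in single fibers and in pools of 20 against whole muscle, from edgeR on TMM-scaled counts, with SE as bars and called genes in color. Eif4e1b, Eif4ebp3, Eif5a2 and Eef1akmt3 are left out. In single fibers 28 genes lie to the right as called and Eef1a1 and Eef1a2 to the left, while in pools of 20 Eif3m, Eef1a1 and Eif4a2 lie furthest to the left. On library totals only 3 genes stay called higher in single fibers.

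The start codon factors were mostly higher in single fibers on the TMM scale. Of 6 genes, 5 rose in single fibers, with a median of 1.49, and on library totals 2 remained called, with a median of 0.43. Eif1, which keeps the scanning ribosome open until it meets a start codon, was the most abundant factor per kilobase in every group. Its level was 1594, 1699 and 992 CPM in single fibers, 556, 331 and 1521 in pools of 5, 318, 48.1 and 356 in pools of 20 and 363, 406 and 456 in whole muscle. Single fibers did not overlap whole muscle, and 5-fiber pool 3 lay with the single fibers. The difference was 1.74 ± 0.272 (adjusted p = 0.00397 in edgeR), and 0.65 on library totals, and was not called in 1 fit over all 12 libraries. Eif1 shares 30.5% of its 50-base windows with other genes, mostly pseudogenes but also the protein-coding gene Emd, so its count is uncertain. Its 15 pseudogenes together held 19.4 to 31.6 CPM in single fibers and 5.28 to 5.64 in whole muscle. Eif1a, which works beside Eif1 in scanning, had 121, 67.5 and 131 CPM in single fibers against 24, 23.8 and 18 in whole muscle. That is a difference of 2.26 ± 0.356 (adjusted p = 0.00408 in edgeR) and 1.24 on library totals. Its X-linked copy Eif1ax had the larger share of the pair per kilobase in whole muscle, 73.2% to 77.7%, and 42.9%, 74.5% and 47% in the 3 single fibers. Such shares are ratios within a library and need no scaling. Eif5, which makes eIF2 hydrolyse its GTP at the start codon, had 368 ± 45.3 CPM (SD, n = 3) in single fibers and 119 ± 6.72 in whole muscle, a rise of 1.58 ± 0.235 that lost its call on library totals.

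The eIF2 subunits differed in their calls. eIF2 carries the initiator tRNA and is built of alpha (Eif2s1), beta (Eif2s2) and gamma (Eif2s3x and Eif2s3y). Eif2s2 rose in single fibers, with 209, 445 and 225 CPM against 90.3, 96 and 98.7 in whole muscle (1.56 ± 0.314, adjusted p = 0.00927 in edgeR, not called on library totals). Eif2s1 was at 36.9, 176 and 66.3 CPM in single fibers, on both sides of the 61.1 to 72.3 of whole muscle. In pools of 20 Eif2s1 was at 14, 8.11 and 14.6 CPM and fell by 2.12 ± 0.424 (adjusted p = 8.32e-04 in edgeR), by 2.32 on library totals. In 5-fiber pools 1 and 2 it was at 11.8 and 10.8, near the pools of 20, and in pool 3 at 112. The alpha to beta ratio per kilobase was 0.844 to 1.09 in whole muscle and 0.117 to 0.54 in all 9 fiber libraries; the pair was chosen after its values were seen.

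Gamma is encoded by a gene on X and another on Y. Their promoter windows (RefSeq starts on GRCm38.p6, 60 bases before and 15 from the start on) are shown because the copies had such unequal counts. The pyrimidine run at the annotated start is in capitals.
Eif2s3x (chrX:94212637-94212711, minus strand): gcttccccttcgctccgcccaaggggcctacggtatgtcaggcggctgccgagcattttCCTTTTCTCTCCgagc
Eif2s3y (chrY:1010535-1010609, plus strand): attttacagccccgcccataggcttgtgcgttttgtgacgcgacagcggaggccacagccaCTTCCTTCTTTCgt
Eif2s3y had 11 to 87.2 CPM over the 12 libraries and Eif2s3x 2.09 to 7.14. Per kilobase, the Y copy made up 80.6% to 92.4% of the pair in every library. The share of Eif2s3x may be too low, because 52% of its windows are shared with a pseudogene. Neither copy was called in single fibers: Eif2s3y differed by 0.06 ± 0.326, and by -1.03 (adjusted p = 0.0348 in edgeR) on library totals, where it is called lower.

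The eIF2B complex, which reloads eIF2 with GTP, had 1 of 5 subunits higher in single fibers and 2 of 5 lower in pools of 20. Eif2b1, the regulatory alpha subunit, had 96.4, 173 and 76.4 CPM in single fibers, 14.1, 12.8 and 152 in pools of 5, 21.8, 4.93 and 18.8 in pools of 20 and 49.6, 52.5 and 43.6 in whole muscle. It rose by 1.18 ± 0.308 in single fibers (adjusted p = 0.0228 in edgeR), a call lost on library totals, and fell by 1.41 ± 0.461 in pools of 20 (adjusted p = 0.0214 in edgeR), which held there. Single fibers and pools of 20 did not overlap. Eif2b3, a partner of the catalytic subunit Eif2b5, fell by 0.86 ± 0.319 in pools of 20 (adjusted p = 0.0378 in edgeR), a call lost on library totals. Eif2b2, Eif2b4 and Eif2b5 were not called in either comparison.

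Of the eIF2 alpha kinases, which stop initiation under stress, none was called in single fibers by edgeR or DESeq2, and 1 had an unadjusted p under 0.05 in edgeR. Eif2ak4 (GCN2, the amino acid sensor) had 11.4, 1.82 and 9.44 CPM in single fibers, 10.3, 10.4 and 3.29 in pools of 5, 12.2, 10.9 and 12.2 in pools of 20 and 2.17, 2.03 and 3.68 in whole muscle. Single fiber 2 and 5-fiber pool 3 lay with whole muscle and the other 7 fiber libraries above it. These 2 are also the fiber libraries of lowest background, with a read on 4.85% and 4.58% of receptor genes. The part of background in the higher values was not tested. Eif2ak4 rose in pools of 20 by 2.51 ± 0.367 (adjusted p = 1.51e-04 in edgeR), by 2.42 on library totals. Its rise over all fibers (1.75 ± 0.554, adjusted p = 0.0409 in edgeR) was lost on library totals and whenever any whole muscle library was left out, and it held under 7 of 21 alternatives. Eif2ak3 (PERK, the sensor of the endoplasmic reticulum) had 1.67, 2.08 and 0.356 CPM in single fibers against 3.18 to 4.14 in whole muscle, a difference of -1.49 ± 0.616 (adjusted p = 0.0979 in edgeR), called lower only on library totals and without single fiber 2. Eif2ak1, the heme-regulated kinase, was the most abundant of the 4, with 19.8 to 31.8 CPM in single fibers and 19.6 to 25.9 in whole muscle. In pools of 20, Eif2ak2 and Eif2ak3 lay within background, meaning that they had no more reads per kilobase than the receptor gene at percentile 99.

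eIF3, the large scaffold that holds the small subunit, had 9 of its 14 genes higher in single fibers, with a median of 1.37. On library totals 0 of 14 were called, with a median of 0.30 and 10 of 14 above 0. The genes that rose were Eif3a, Eif3c, Eif3e, Eif3f, Eif3g, Eif3h, Eif3i, Eif3j1 and Eif3k. The most abundant per kilobase, Eif3h, had 198, 209 and 104 CPM in single fibers and 53.5, 56.2 and 60.3 in whole muscle, a rise of 1.52 ± 0.279 (adjusted p = 0.00699 in edgeR), and 25.8% of its windows are shared with a pseudogene. Eif3a, the core subunit, had 203, 182 and 169 CPM against 63.5, 66.1 and 58.7 (1.51 ± 0.22, adjusted p = 0.00312 in edgeR). Eif3b, Eif3d, Eif3j2, Eif3l and Eif3m were not called.

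Eif3m, a peripheral subunit, had the widest range of ratios to the other subunits. It had 117, 132 and 111 CPM in whole muscle, 112, 287 and 83.9 in single fibers, 20.8, 11.2 and 224 in pools of 5 and 12.3, 4.4 and 13.7 in pools of 20. In pools of 20 it fell by 3.27 ± 0.538 (adjusted p = 2.78e-04 in edgeR), by 3.54 on library totals, the largest fall among the factors. Single fibers lay above pools of 20 by 3.61 ± 0.608 (adjusted p = 0.00462 in edgeR). Within each library, Eif3m reads per kilobase were 2.62 to 3.08 times those of the median eIF3 subunit in whole muscle, 1, 2.46 and 1.28 times in single fibers, and 0.308 to 0.513 times in 5-fiber pools 1 and 2 and the pools of 20. In 5-fiber pool 3 the ratio was 2.27. The 5 libraries with the low ratio are also the 5 with a read on over 50% of receptor genes. The part of background in this was not tested. Of the gene's windows 31.2% are shared, mostly with a pseudogene that had 0.135 to 1.51 CPM in all libraries.

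**Figure D3:**
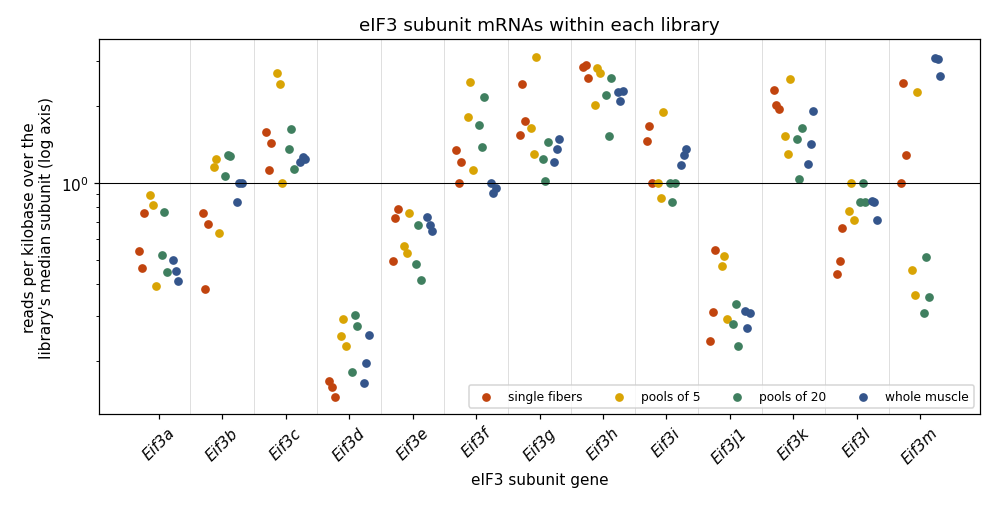
Reads per kilobase of 13 eIF3 subunit genes relative to the median subunit of the same library (log axis), 1 point for each of the 12 libraries, colored by group. The ratio needs no scaling between libraries. Eif3m spans 0.308 to 3.08, with whole muscle at the top and 5 pool libraries at the bottom, while Eif3d is low in all libraries, at 0.145 to 0.304.

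The helicase module that unwinds the 5′ end of mRNA (Eif4a1, Eif4a2, Eif4b, Eif4h, with Eif4a3 of the exon junction complex) had 0 of 5 genes called in single fibers by edgeR or DESeq2, and 1 with an unadjusted p under 0.05 in edgeR. Eif4a1 had 167, 59.2 and 189 CPM in single fibers against 59 to 67.5 in whole muscle, so that single fiber 2 lay with whole muscle (1.12 ± 0.45, adjusted p = 0.0904 in edgeR). Eif4a2, the form known to be strong in muscle and brain, was the reverse: 125 and 129 CPM in single fibers 1 and 3, 445 in single fiber 2 and 118 to 143 in whole muscle. Its difference of 0.72 ± 0.47 turned to -0.43 on library totals and to -0.08 without single fiber 2. In pools of 20 Eif4a2 had 33.5, 7.66 and 26.7 CPM and fell by 2.28 ± 0.562 (adjusted p = 0.00381 in edgeR), by 2.63 on library totals. As a share of the pair per kilobase, Eif4a2 took 62% to 64.3% in whole muscle and 18.8% to 20.7% in pools of 20, with no overlap. The share was 37.8%, 85.9% and 35.6% in single fibers and 22.7%, 26.5% and 52% in pools of 5. Eif4a1 shares 43.8% of its windows with other genes, chiefly pseudogenes.

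Of 5 cap binding genes, of which 4 were tested, 2 rose in single fibers (Eif4e and Eif4e2), as did the repressors Eif4ebp1 and Eif4ebp2, but none of these did on library totals. Eif4e, which binds the cap, had 255, 218 and 552 CPM in single fibers against 114, 113 and 93.1 in whole muscle (1.68 ± 0.434, adjusted p = 0.0217 in edgeR), and 17.6 to 66.8 in pools of 20. Eif4e2, a relative that competes for the cap, rose by 1.27 ± 0.226 (adjusted p = 0.00625 in edgeR), while Eif4e3 and Eif4enif1 were not called. Eif4ebp1, the repressor that mTOR releases from eIF4E, had 288, 116 and 202 CPM in single fibers, 43.8, 27 and 211 in pools of 5, 8.19 to 45.6 in pools of 20 and 50.3 to 63.4 in whole muscle (1.82 ± 0.367, adjusted p = 0.00934 in edgeR, for single fibers). Eif4ebp2 rose by 1.36 ± 0.267 (adjusted p = 0.0085 in edgeR). On library totals Eif4e and Eif4ebp1 stood at 0.70 and 0.78, and both calls were also lost in 1 fit over all 12 libraries and without any whole muscle library. The ratio of Eif4ebp1 to Eif4e per kilobase overlapped between single fibers (1 to 3.1) and whole muscle (1.2 to 1.86). Eif4e1b and Eif4ebp3, with at most 9 and 5 reads in a library, lay within background in whole muscle. The scaffolds Eif4g1, Eif4g2 and Eif4g3 were not called in single fibers by edgeR or DESeq2, 1 having an unadjusted p under 0.05 in edgeR, and on library totals 2 of 3 were lower. Eif4g2, which lacks the site for eIF4E and is the most abundant, had 527, 791 and 640 CPM in single fibers, 267 to 653 in pools of 5, 59 to 326 in pools of 20 and 489 to 560 in whole muscle.

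Among the late factors, Eif5b, the GTPase that joins the large subunit, was the one gene called higher in pools of 5. It had 99.2, 100 and 86.3 CPM in single fibers, 99.3, 105 and 86.4 in pools of 5, 91.1, 20.4 and 59.8 in pools of 20 and 25.3, 29.5 and 43.6 in whole muscle. It rose by 1.49 ± 0.271 in single fibers (adjusted p = 0.00682 in edgeR) and by 1.50 ± 0.338 in pools of 5 (adjusted p = 0.0377 in edgeR), and neither call held on library totals. The call in pools of 5 was also lost with no filter, with the replicate block, in 1 fit over all 12 libraries and when any whole muscle library, 5-fiber pool 1 or 5-fiber pool 2 was left out. Eif6, which keeps the subunits apart until release, rose by 0.99 ± 0.288 in single fibers, again not on library totals. Eif5a, which helps the ribosome past stretches such as prolines, was the second most abundant factor per kilobase in single fibers and whole muscle. It had 284, 485 and 245 CPM in single fibers and 296, 336 and 347 in whole muscle (-0.01 ± 0.281, called lower by 1.11 on library totals), and 99.6, 16.5 and 87.3 in pools of 20, where it fell by 2.00 ± 0.676 (adjusted p = 0.0246 in edgeR). In pools of 5 it had 77.4, 47.5 and 723 CPM. Its paralog Eif5a2 had 0 reads in the 3 single fibers and 25, 14 and 87 in whole muscle, at least 23-fold lower when 3 counts over the group are taken as the floor (adjusted p = 0.0133 in edgeR). The call was lost without whole muscle 1 or 3 (adjusted p = 0.0568 and 0.0608 in edgeR).

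Both eEF1A genes fell in single fibers, against the direction of most factors. Eef1a1 had 126, 138 and 137 CPM in whole muscle, 51.9, 54.7 and 42.5 in single fibers, 53.2, 28.4 and 68.6 in pools of 5 and 6.38, 2.35 and 35.9 in pools of 20. All 9 fiber libraries lay below all 3 of whole muscle. The fall was 1.48 ± 0.215 in single fibers (adjusted p = 0.00309 in edgeR), 1.50 ± 0.368 in pools of 5 (adjusted p = 0.0474), 2.91 ± 0.747 in pools of 20 (adjusted p = 0.00512) and 2.00 ± 0.523 over all fibers (adjusted p = 0.0177). On library totals it was 2.55, 2.69 and 3.18 in the 3 groups, called in each. The fall in pools of 5 was not called with RLE factors, with the replicate block, or without 5-fiber pool 1 or any whole muscle library. The fall over all fibers was not called without whole muscle 2 or 3 or with the 9 fiber libraries as 1 group. DESeq2 also did not call it over all fibers. In 1 fit over all 12 libraries the falls in pools of 5 and in single fibers (adjusted p = 0.192 in edgeR) were not called. Eef1a1 shares 55.8% of its windows with other genes, and its 16 pseudogenes together held 0.802 to 1.75 CPM in single fibers, 2.37 to 4.65 in pools of 5 and 2.01 to 3.14 in whole muscle. They held 5.01, 12.7 and 4.68 CPM in pools of 20, near the level of the gene in 20-fiber pool 1 and above it in 20-fiber pool 2, so the size of the fall there is uncertain. Summed fibroblast and endothelial markers were also lower in all 9 fiber libraries than in whole muscle, and their part in the fall of Eef1a1 was not tested.

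Eef1a2 had 68.9, 45.6 and 61.7 CPM in single fibers, 172, 141 and 46 in pools of 5, 205, 38.1 and 135 in pools of 20 and 119, 185 and 166 in whole muscle. Single fibers lay below whole muscle without overlap, a fall of 1.44 ± 0.288 (adjusted p = 0.00895 in edgeR) and of 2.48 on library totals, not called without whole muscle 2 or 3 or in 1 fit over all 12 libraries. The pools overlapped whole muscle, at -0.43 ± 0.514 for pools of 5 and -0.04 ± 0.618 for pools of 20. As a share of eEF1A reads per kilobase, Eef1a2 had 61.4%, 49.9% and 63.4% in single fibers and 53.1%, 61.7% and 59.1% in whole muscle, which overlap. In pools of 20 the share was 81.8% to 97.5%, above whole muscle in every library. By level per kilobase, Eef1a2 ranked 24 of the 68 in single fibers and 3 in whole muscle, and Eef1a1 34 and 5.

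The windows around the RefSeq starts of Eef1a1 and Eef1a2 are shown because only the first has a pyrimidine run (capitals) at its annotated start. The Eef1a2 window holds a pyrimidine run shortly before its start, left in small letters. A pyrimidine run at the 5′ end marks mRNAs that mTOR is known to regulate, but where either mRNA starts was not measured. Those of Eef1b2 and Eef2 are shown because these partners were called higher in single fibers on the TMM scale. Neither call held on library totals. The letters of an ETS site CCGGAAGT and of a CRE site TGACGTCA are in capitals. The Eef2 window also holds CACGTG and TATAAA, left in small letters. Each has 60 bases before the start and 15 from it on, on GRCm38.p6.
Eef1a1 (chr9:78481710-78481784, minus strand): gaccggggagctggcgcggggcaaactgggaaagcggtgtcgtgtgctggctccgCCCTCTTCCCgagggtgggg
Eef1a2 (chr2:181157001-181157075, minus strand): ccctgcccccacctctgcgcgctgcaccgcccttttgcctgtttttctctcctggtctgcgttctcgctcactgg
Eef1b2 (chr1:63176771-63176845, plus strand): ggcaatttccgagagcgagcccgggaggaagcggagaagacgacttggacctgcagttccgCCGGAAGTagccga
Eef2 (chr10:81176571-81176645, plus strand): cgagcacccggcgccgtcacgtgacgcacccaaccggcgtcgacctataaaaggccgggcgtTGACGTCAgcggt
Over the 67 windows of 300 bases that 52 of the 68 genes have in the table, a C followed by 4 of C or T within 5 bases of the start was found in 23.9%, against 18.3% of all 32851 windows. On either strand, CCGGAAGT was found in 16.4% against 3.89%, the E-box CACGTG in 22.4% against 7.15%, TATAAA in 7.46% against 13.6% and TGACGTCA in 1.49% against 1.79%. These matches are letters in a window and not measured sites.

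**Figure D4:**
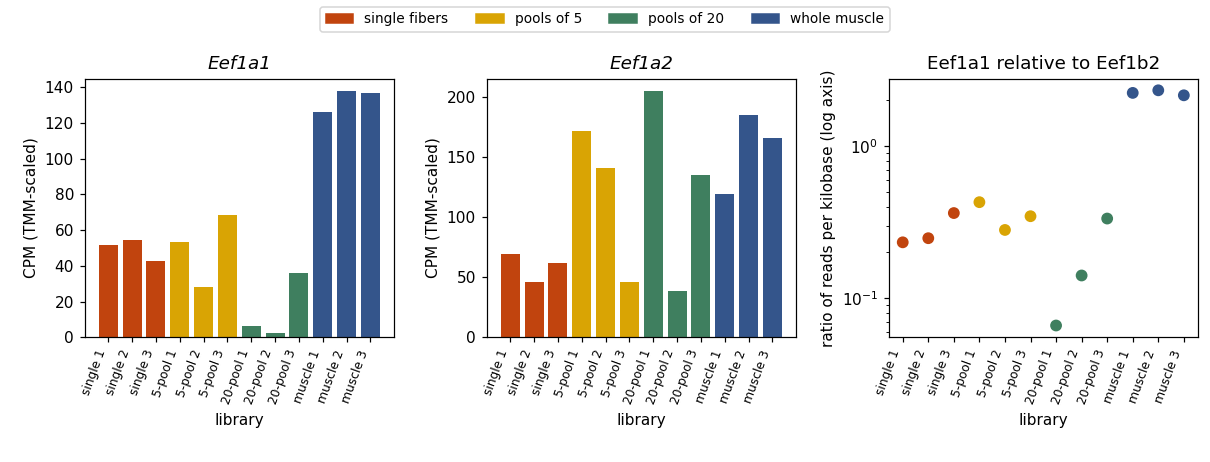
CPM (TMM-scaled) of Eef1a1 and Eef1a2 in each of the 12 libraries (bars), and the ratio of Eef1a1 to Eef1b2 in reads per kilobase (points, log axis). Eef1a1 reaches at most 68.6 CPM in the 9 fiber libraries and at least 126 in whole muscle. The ratio, which needs no scaling, is 0.0661 to 0.428 in fiber libraries and 2.16 to 2.33 in whole muscle.

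The eEF1B complex, which recharges eEF1A with GTP, rose on the TMM scale as eEF1A fell. Of its 4 genes 3 rose in single fibers, with a median of 1.45, while on library totals 0 were called, with a median of 0.34. Eef1b2, the exchange subunit, had 226, 224 and 119 CPM against 56.9, 60.2 and 64.5 in whole muscle (1.58 ± 0.274, adjusted p = 0.00583 in edgeR). Eef1g, its scaffold, had 401, 418 and 158 CPM against 85.8, 98.6 and 102 (1.69 ± 0.349, adjusted p = 0.00998 in edgeR), with 58.3% of windows shared with pseudogenes that also had more reads in single fibers (2.94 to 8.24 CPM) than in whole muscle (1.16 to 1.55). Eef1d rose by 1.33 ± 0.33. Eef1e1, a companion of the tRNA synthetase complex that is related to the eEF1B subunits by sequence, was not called in single fibers and fell by 1.90 ± 0.326 in pools of 20 (adjusted p = 3.26e-04 in edgeR). The ratio of Eef1a1 to Eef1b2 reads per kilobase was 0.233, 0.248 and 0.363 in single fibers, 0.281 to 0.428 in pools of 5, 0.0661 to 0.334 in pools of 20 and 2.16 to 2.33 in whole muscle; this pair was chosen after its values were seen.

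Eef2, the translocase, had 676, 338 and 292 CPM in single fibers, 369, 295 and 347 in pools of 5, 253, 43.5 and 191 in pools of 20 and 179, 208 and 215 in whole muscle. Single fibers lay above whole muscle (1.06 ± 0.342, adjusted p = 0.0464 in edgeR), but the difference was -0.02 on library totals, and the call was also lost with upper-quartile factors, with no filter, with the replicate block, in 1 fit over all 12 libraries, and without single fiber 1 or any whole muscle library. Its kinase Eef2k, which slows elongation, had 12.7 to 24.4 CPM in single fibers and 16.5 to 18.5 in whole muscle and was called in no comparison.

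The methyltransferases that modify lysines of eEF1A and eEF2 did not share a direction. Eef1akmt4 had 19.1, 13 and 11 CPM in single fibers against 3.18, 2.78 and 1.79 in whole muscle, the largest rise in single fibers (2.43 ± 0.395, adjusted p = 0.00461 in edgeR, and 1.34 on library totals). Its exons overlap those of another protein-coding gene on the same strand and of Alg3 on the other over 39.5% of their length, and without a stated strand setting its count is uncertain. Eef1akmt1 had 29, 137 and 36.7 CPM in single fibers, 40.5 to 45 in whole muscle and 9.11, 2.58 and 12.7 in pools of 20, a fall there of 2.13 ± 0.453 (adjusted p = 0.00135 in edgeR), and 10.6, 4.65 and 72.7 in pools of 5. Eef1akmt2 fell in pools of 20 by 1.95 ± 0.443 (adjusted p = 0.00218 in edgeR). Eef1akmt3 was called higher in pools of 20 (4.21 ± 0.948, adjusted p = 0.00204 in edgeR) from 22, 37 and 14 reads against 1, 5 and 4, which lies within background in the pools of 20. Eef2kmt was not called.

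The factors that fell in pools of 20 had a like layout over the libraries, noticed after the values were seen. For 10 of these 11 genes, all but Eef1a1, 5-fiber pools 1 and 2 lay below every whole muscle library and 5-fiber pool 3 above every one. How many of all the genes that fell share this layout was not counted. Over all genes, 5-fiber pool 3 also differed from pools 1 and 2 (correlations of 0.739 and 0.673), so the layout need not be particular to the factors. Single fibers stood above pools of 20 by 3.61 ± 0.608 for Eif3m, 3.02 ± 0.662 for Eif4a2, 2.70 ± 0.631 for Eef1akmt1 and 2.59 ± 0.549 for Eif2b1, the 4 largest called differences (adjusted p = 0.00462 to 0.00727 in edgeR), in a comparison that shares the pools of 20. The pools with low values are those with a read on over 50% of receptor genes, and the part of background in these falls was not tested.

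Other genes of translation and its control were read from 5 lists. In single fibers against whole muscle, poly(A) binding, termination and recycling had 5 of 11 higher and 0 lower, and on library totals 2 higher and 1 lower. Pabpc1, the cytoplasmic poly(A) binding protein, had 541 ± 387 CPM (SD, n = 3) against 52 ± 2.65 (3.37 ± 0.729, adjusted p = 0.0118 in edgeR, 2.38 on library totals). Regulators in the eIF2 stress response had 3 of 9 higher and 2 lower, and on library totals 2 and 2. Ddit3 (CHOP) had 346 ± 200 CPM against 9.34 ± 1.07 (5.13 ± 0.452, adjusted p = 5.58e-04 in edgeR) and Ppp1r15a (GADD34, which leads the phosphatase to eIF2) 100 ± 14.7 against 11.7 ± 1.72 (3.06 ± 0.273, adjusted p = 5.94e-04 in edgeR), and both held on library totals. Atf4 rose by 2.30 ± 0.57, not on library totals, and Ppp1cc and Nck1 fell on both scales. The mTOR axis had 4 of 15 higher (Mtor, Rptor, Tsc1 and Tsc2) and 3 lower (Mlst8, Akt1s1 and Ddit4), and on library totals 0 higher and 5 lower, those 3 among them. Enzymes that modify eIF5A and eEF2 had 2 of 9 higher, Dhps and Dph3, and on library totals 0 higher and 3 lower. Of 9 mitochondrial translation factors 0 were called by edgeR or DESeq2 and 0 had an unadjusted p under 0.05 in edgeR, while on library totals 7 were lower. In pools of 20 the mitochondrial factors had 0 higher and 4 lower, with a median of -0.83. Of all genes tested there, 30.3% were called higher and 13.5% lower. The poly(A) list had 1 higher and 4 lower there, and the stress response list 2 and 3. The mTOR axis had 3 and 2, and the modifying enzymes 1 and 2.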

How the data were processed

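The deposited table holds unnormalized read counts for each Ensembl identifier, which the authors made with HISAT2, SAMtools and featureCounts on GRCm38 (mm10), per the submitters' processing notes. Versions, strand, multi-mapping settings and annotation release are not given in the sources used here. Of 55573 identifiers, 55480 matched GENCODE M21, which gave symbols, gene types and exon lengths. Every 2 groups compared were fitted on their 6 libraries alone, and isolated fibers against whole muscle on all 12, with edgeR 4.0.16 in R 4.3.3 (TMM, filterByExpr, glmQLFit and glmQLFTest, all genes adjusted together). DESeq2 1.42.0 was an alternative. The fits were tested on simulated data in which 200 genes changed 2-fold or 4-fold. The simulated libraries did not differ in background, so the effect of background on the calls was not tested. Per kilobase means per kilobase of merged exons. Shared windows are 1 in 8 of a gene's 50-base transcript windows, looked up on both strands in all other annotated transcripts. Named were the 8 called genes of largest change in each direction for isolated fibers, the 4 for every other comparison, the most abundant gene per kilobase of each role group, and Eef1a1, Eef1a2, Eef2, Eif4e, Eif4ebp1, Eif4a1, Eif4a2, Eif2s3x, Eif2s3y and Eif2ak3; others were named to complete a role group. Genes, lists and role groups were chosen with earlier results of these data known. Library totals, and the libraries left out by background, were added as alternatives after the data were seen. Promoter windows come from RefSeq on GRCm38.p6.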

Additional observations from a re-analysis of the deposited data

Results flagged for a closer look

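Eif2b1, the alpha subunit of eIF2B, was called higher in single fibers and lower in pools of 20, both against whole muscle. The difference between the 2 fiber groups, tested directly, was 2.59 ± 0.549 on the log2 scale (adjusted p = 0.00727 in edgeR, higher in 3 of 3 single fibers than in any pool of 20). On library totals the rise in single fibers was not called and the fall in pools of 20 was. With the replicate number as a block the direct difference was not called (adjusted p = 0.0891).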

How the results depend on the processing

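The number of factors called depended on the processing in every comparison but pools of 5 against pools of 20, which gave 0 throughout. With each library left out in turn, it ranged from 0 to 10 for isolated fibers (2 in the main analysis), 8 to 39 for single fibers (31), 0 to 32 for pools of 5 (2), 10 to 34 for pools of 20 (13), 0 to 6 for single fibers against pools of 5 (0) and 13 to 26 for single fibers against pools of 20 (26). Isolated fibers gave 4 with RLE factors, 5 with upper-quartile factors, 13 with DESeq2, 0 with the 9 fiber libraries as 1 group, 21 on library totals, 29 without the libraries of high background and 12 without those of lowest background. Single fibers gave 3 in 1 fit over all 12 libraries and 16 on library totals. Pools of 5 gave 5 with RLE, 9 with upper-quartile factors, 1 with no filter, 10 with DESeq2, 0 over all 12 libraries, 17 on library totals and 46 without the libraries of high background. The last of these fits for pools of 5 keeps only 5-fiber pool 3. It has no spread between pools of 5, so its count is not read as a result. Pools of 20 gave 22 with DESeq2 and 27 on library totals. Single fibers against pools of 5 gave 22 without the libraries of lowest background. Single fibers against pools of 20 gave 14 with no filter and 17 on library totals. The cause of these shifts was not tested.

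The shared replicate numbers do not mark a stated pairing, and deviations of same-numbered libraries correlated from -0.403 to 0.455, so the block shares only a number. With the replicate block, 0 factors were called in pools of 5, 0 in single fibers against pools of 20, 3 in isolated fibers, 24 in single fibers and 12 in pools of 20.

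Signs turned for some named genes, of which Eef2 in single fibers had been called. In isolated fibers on library totals, the log2 fold change became -0.32 for Eef2, -0.09 for Eif4a1, -0.43 for Eif4e and -0.22 for Eif4ebp1, and without the libraries of high background 0.56 for Eif4a2. In single fibers it became -0.02 for Eef2, -1.03 for Eif2s3y and -0.43 for Eif4a2 on library totals. For Eif2s3y it was -0.07 with upper-quartile factors and with no filter, -0.00 with DESeq2, and -0.02 with the replicate block. With each library left out in turn, single fibers ranged from -0.29 to 0.26 for Eif2s3y, -0.27 to 0.12 for Eif2s3x and -0.08 to 0.95 for Eif4a2. Low depth limits Eif5a2, Eif4e1b, Eif4ebp3 and Eef1akmt3.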
